A study of Saccharomyces cerevisiae with 8 samples.

Results

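The genes described here encode proteins that end or degrade noncoding transcripts in the budding yeast Saccharomyces cerevisiae. The set names 10 genes: NRD1, NAB3 and SEN1 of the termination complex, RRP6 and LRP1 of the nuclear exosome, PAP2, AIR1, AIR2 and MTR4 of the TRAMP complex, and the exonuclease gene XRN1. They were found by systematic name among the coding transcripts of the transcript annotation that the counts use. That annotation holds 8 of the 10 among its 6030 transcripts. SEN1 and XRN1 were not analysed here. All 8 annotated genes passed the filter on low counts that left 5746 transcripts.

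The series compares newly made RNA in strains with mutations in Mediator, which relays signals from activators bound to DNA to RNA polymerase II. There were 4 groups of 2 libraries each: med7-1002, med21-1002, med10-1002 and the parent strain, each mutant group being 1 strain with an allele of the named subunit. The labels do not describe the alleles further. Every group, parent included, also carries hsp82-, the reporter DHSE-lacZ, and the markers trp1-1, ura3, leu2-3,112, his3-11,15, cyh2r, can1-100 and ade- in a background labelled MATa. Cultures grew in rich glucose medium at 30 °C, inoculated at an OD600 of 0.1 and harvested at 0.8. A 6 min pulse of 5 mM 4-thiouracil, a uracil analogue taken up into RNA during synthesis, preceded harvest, and libraries were made from 100 ng of purified labelled RNA. The labels name separate samples without stating whether each was its own culture, and the p-values reflect differences among these samples that may be technical only.

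Nrd1 and Nab3 bind short motifs in nascent RNA and, with the helicase Sen1, end transcription by RNA polymerase II on short noncoding genes. The released transcripts are passed to TRAMP, in which the poly(A) polymerase Trf4 (gene PAP2) adds a short tail, a zinc-knuckle protein (Air1 or Air2) binds the RNA and the helicase Mtr4 unwinds it. The nuclear exosome with its exonuclease Rrp6, which Lrp1 binds and stabilises, then trims or destroys the RNA. Cryptic unstable transcripts (CUTs) are the best known substrates of this route. The NRD1 message is itself a known target: Nrd1 and Nab3 can end its transcription early, within its 5′ leader.

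The libraries held 10962170 to 23629303 counted reads. Both med7-1002 libraries stood apart in mating-type markers, and replicate 1 also by transcript length. The log2 differences between replicates had an SD of 0.92 across transcripts in med7-1002, against 0.37 in med21-1002, 0.23 in med10-1002 and 0.27 in parent. Relative to the parent mean, transcripts of at most 1000 nt had a median log2 difference of 0.70 in med7-1002 replicate 1 and 0.18 in replicate 2. Those over 3000 nt had -0.50 and -0.14. In the other mutant libraries the medians were -0.15 to 0.07 for the short class and -0.03 to 0.17 for the long class. The largest of these are close in size to those of med7-1002 replicate 2. The labels read MATa throughout, yet the parent, med21-1002 and med10-1002 libraries mainly held transcripts of MATalpha markers: 4 such genes summed to 61.0 to 70.2 CPM (counts scaled to a fixed library total) in med7-1002, against 848 to 1038 CPM in the other mutants and 1217 to 1287 CPM in parent, and 2 of the 4, MF(ALPHA)1 and STE3, were at 0 in med7-1002 replicate 2. All 4 fell in med7-1002 against parent, and 5 of 5 MATa markers rose. The 5 MATa markers summed to 482 to 698 CPM in med7-1002, against 15.0 to 63.4 CPM in the other mutants and 25.6 to 26.7 CPM in parent. Mating type and allele cannot be told apart in the comparisons with med7-1002, so results are also given from a fit without its libraries. The labels give med7-1002 and med10-1002 libraries the same barcodes and name no sequencing run, so a run effect was not tested.

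The 128 bases upstream of the annotated start are shown for the 2 genes that passed the test in med7-1002, NRD1 and MTR4, and for NAB3, the binding partner of Nrd1. They come from the RefSeq sequence of build R64, each on the strand of its gene, and run to the base before the transcript. Capitals mark, in either orientation, a TATA element, the core of the PAC element of ribosome biogenesis genes or the core of the RRPE element, whose letters are given after the sequences.
NRD1, chrXIV:174588-174715, minus strand: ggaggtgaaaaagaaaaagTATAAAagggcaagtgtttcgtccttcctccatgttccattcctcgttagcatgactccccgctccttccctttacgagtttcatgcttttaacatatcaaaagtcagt
NAB3, chrXVI:187820-187947, minus strand: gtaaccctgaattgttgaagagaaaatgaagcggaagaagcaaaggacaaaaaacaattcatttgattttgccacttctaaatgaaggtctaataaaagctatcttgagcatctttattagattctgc
MTR4, chrX:342346-342473, plus strand: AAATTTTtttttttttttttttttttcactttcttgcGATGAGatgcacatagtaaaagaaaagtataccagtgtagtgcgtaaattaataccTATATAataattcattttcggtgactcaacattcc

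Searched on both strands over 250 bases upstream, the TATA element TATAAA lay before 3 of the 8 genes (NRD1, LRP1, AIR1), against 41.7% of 4928 coding transcripts. Its variant TATATA lay before 4 (RRP6, AIR1, AIR2, MTR4), against 33.8%. The PAC core GATGAG lay before 3 (LRP1, AIR1, MTR4), against 18.7%. The RRPE core AAAATTT lay before 2 (RRP6, MTR4), against 24.7%. TTACCCG, the Reb1 motif, has no match in these windows, against 9.17% of all. These are letter matches only, and matches of different motifs may overlap.

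The 30-base stretch of the NRD1 leader shown next holds both of its matches to TCTT, a motif that Nab3 binds, in capitals; it covers bases 60 to 89 of the transcript.
NRD1 leader, chrXIV:174499-174528, minus strand: acaactaactcaccaatcaaggcTCTTCTT
In its whole annotated leader of 272 nt, NRD1 has 2 TCTT and 1 GTAA or GTAG, the motif of Nrd1. The median over the first 272 nt of 4926 coding transcripts is also 3 such motifs, and 57.3% hold at least as many.

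Per kilobase of annotated span, the members differed 10.64-fold in parent. NAB3 and NRD1 stood highest there, at 368 ± 14.1 and 350.5 ± 29.8 CPM per kb (SD, n = 2), and their libraries overlapped. MTR4 (103 ± 2.55) and RRP6 (99.3 ± 4.53) followed, then PAP2 (62.8 ± 2.51) and LRP1 (62.5 ± 9.31), then AIR1 (39.8 ± 6.05) and AIR2 (34.6 ± 1.68), and within each of these pairs the parent libraries overlapped. In parent, NRD1 stood at percentile 95.3 and AIR2 at percentile 31.8 of the 4907 coding transcripts tested. In every group NAB3 was the highest and an AIR gene the lowest. NRD1 was the second highest in med21-1002, med10-1002 and parent, but in med7-1002 its mean of 144 ± 56.9 CPM per kb lay below the 149 ± 3.70 of MTR4, at percentile 77.8.

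**Figure D1:**
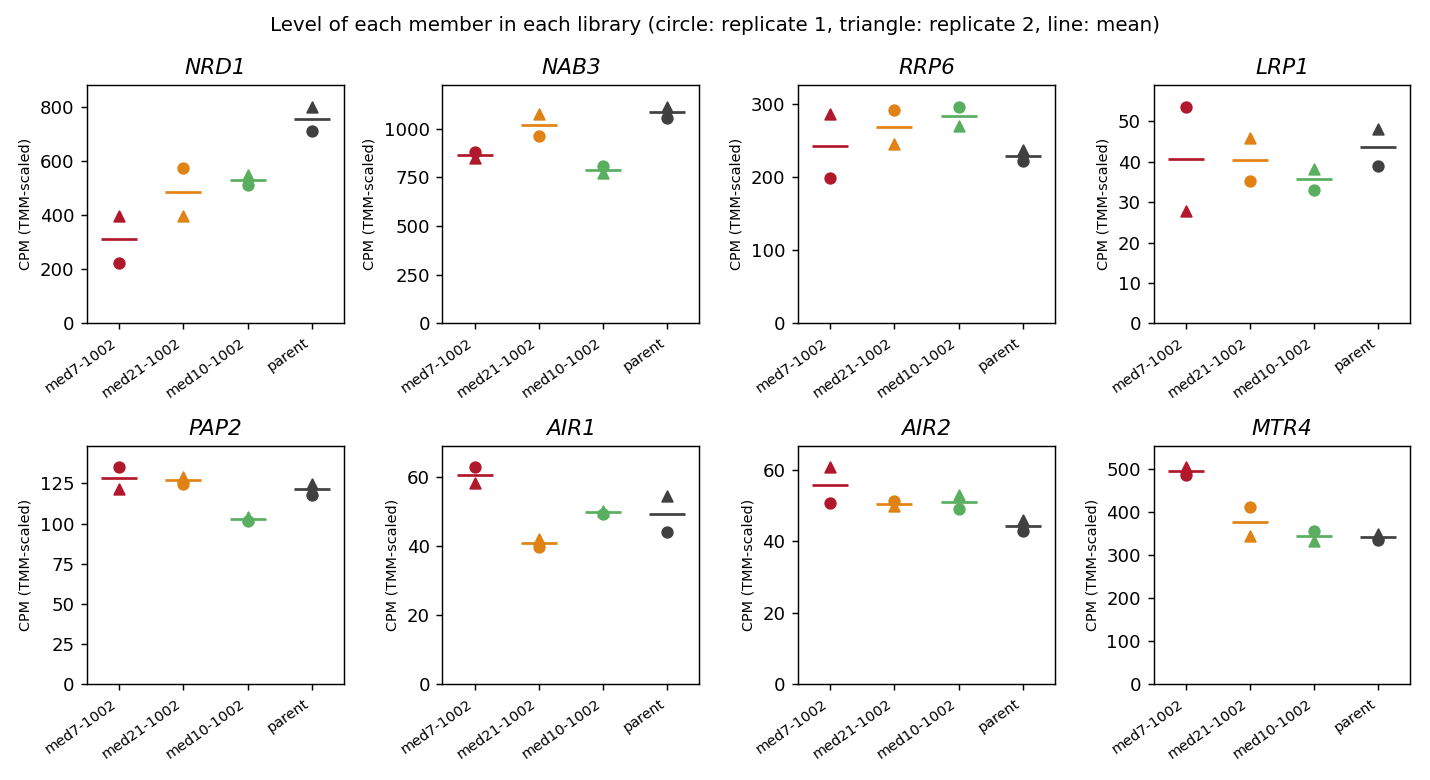
Level of each of the 8 annotated genes in each of the 8 libraries, in CPM scaled by TMM (vertical axis from 0), with groups along the horizontal axis; circles are replicate 1, triangles replicate 2 and lines the group means. All 6 mutant libraries of NRD1 lie below both parent libraries, and MTR4 is highest in med7-1002.

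NRD1 was the member with the largest difference: its new RNA fell 2.43-fold in med7-1002. NRD1 (YNL251C; chrXIV:172429-174587, minus strand, R64, 2159 nt with untranslated regions) had 224 and 398 CPM in med7-1002, 575 and 395 CPM in med21-1002, 513 and 549 CPM in med10-1002, and 711 and 802 CPM in parent. All 6 mutant libraries lay below both parent libraries, as they did for 9.14% of the transcripts tested. The log2 fold change in med7-1002 against parent was -1.28 ± 0.27 (SE; 95% interval -1.90 to -0.67; adjusted p = 0.00433, quasi-likelihood test of edgeR with Benjamini-Hochberg adjustment over all transcripts, as for every adjusted p below). The call and the direction held under all 15 alternatives, with log2 values of -1.77 to -0.93. With the trend on transcript length removed it was -1.01. In bulk libraries, fewer cells making a transcript and less of it made per cell cannot be told apart.

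In the other mutants the NRD1 estimates were smaller. The log2 difference was -0.64 ± 0.27 in med21-1002 (adjusted p = 0.209) and -0.51 ± 0.27 in med10-1002 (adjusted p = 0.271). The 3 comparisons share the parent libraries. In a fit without the med7-1002 libraries, whose spread enters the shared estimate, NRD1 passed as lower in both. The log2 difference was -0.64 in med21-1002 (adjusted p = 0.00522) and -0.49 in med10-1002 (adjusted p = 0.0179). That fit called 29.7% and 36.9% of all transcripts in these comparisons. Each NRD1 call appeared under 4 of 16 alternatives, all of which left out med7-1002 libraries or used the 2 groups alone. With the length trend removed neither passed, at -0.62 (adjusted p = 0.0958) and -0.63 (adjusted p = 0.0783). Set against each other, med7-1002 was lower than med10-1002 by a log2 difference of -0.77 ± 0.27 (adjusted p = 0.0372). This call was lost under 7 of 15 alternatives. Among them, the value was -0.42 without med7-1002 replicate 1 and -0.38 with the length trend removed (adjusted p = 0.150). Between med7-1002 and med21-1002 the difference was -0.64 ± 0.27 (95% interval -1.25 to -0.03, adjusted p = 0.0854). With the length trend removed it was -0.39 (adjusted p = 0.177).

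The NAB3 estimates were smaller in size than those of NRD1 in med7-1002 and med21-1002, but close in med10-1002 (-0.46 against -0.51). Differences between the genes were not tested. NAB3 (YPL190C; chrXVI:184870-187819, minus strand, 2950 nt) had 879.8 and 848 CPM in med7-1002, 964 and 1077 CPM in med21-1002, 807 and 774 CPM in med10-1002, and 1056 and 1114.5 CPM in parent. The libraries of med7-1002 and of med10-1002 lay below both of parent, while med21-1002 overlapped parent. Log2 differences from parent were -0.33 ± 0.14 in med7-1002 (adjusted p = 0.0770), -0.09 ± 0.14 in med21-1002 (adjusted p = 0.774) and -0.46 ± 0.14 in med10-1002 (adjusted p = 0.0795), so none passed. NAB3 in med10-1002 passed under 7 of 16 alternatives, among them the fit without the med7-1002 libraries (-0.44, adjusted p = 0.00344). NAB3 in med7-1002 passed under 5 of 15 (DESeq2: -0.34, adjusted p = 0.00658), but its value was 0.03 with the length trend removed.

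Within a library the ratio of the partners needs no scaling between libraries. It does not remove the trend on transcript length, as the partners differ in annotated span. NRD1 counts per kb, divided by those of NAB3, were 0.348 and 0.641 in med7-1002, 0.815 and 0.501 in med21-1002, 0.868 and 0.970 in med10-1002, and 0.921 and 0.983 in parent. Both med7-1002 and both med21-1002 libraries lay below parent, and the med10-1002 libraries overlapped it. A ratio shows unequal change of the partners, not which of them changed. MTR4 over PAP2 was 2.09 and 2.41 in med7-1002, 1.91 and 1.54 in med21-1002, 2.04 and 1.86 in med10-1002, and 1.65 and 1.62 in parent, so that both med7-1002 and both med10-1002 libraries lay above parent.

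**Figure D2:**
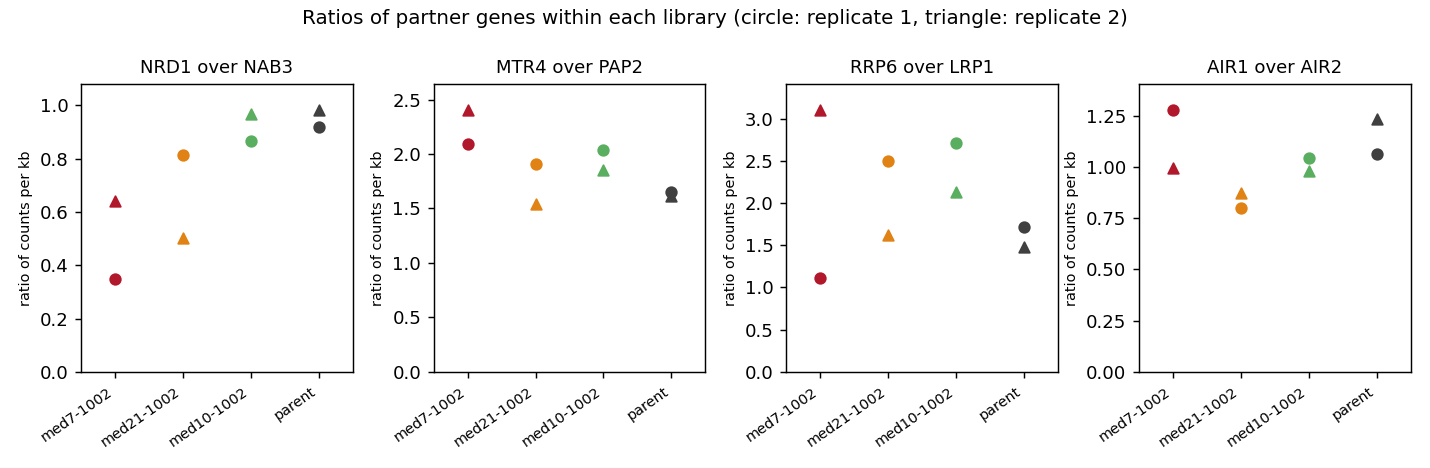
Ratio of counts per kb of 4 pairs of partner genes within each library (vertical axes from 0), by group; circles are replicate 1 and triangles replicate 2. NRD1 over NAB3 is 0.921 and 0.983 in parent and lowest, at 0.348, in med7-1002 replicate 1, while RRP6 over LRP1 spans 1.12 to 3.10 between the med7-1002 replicates. RRP6 has an annotated span of 2309 nt and LRP1 of 698 nt. The part of transcript length in these ratios was not tested.

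MTR4, the helicase gene of TRAMP, rose in med7-1002 and was near its parent level in the other mutants. MTR4 (YJL050W; chrX:342474-345802, plus strand, 3329 nt) had 486 and 504 CPM in med7-1002, 411 and 343 CPM in med21-1002, 357 and 333 CPM in med10-1002, and 336 and 348 CPM in parent. Both med7-1002 libraries lay above all others. The log2 fold change in med7-1002 was 0.53 ± 0.13 against parent (1.45-fold, adjusted p = 0.00973), 0.39 ± 0.13 against med21-1002 (adjusted p = 0.0427) and 0.52 ± 0.13 against med10-1002 (adjusted p = 0.00972). Against parent it no longer passed when parent replicate 1 was left out (adjusted p = 0.0930), when parent replicate 2 was left out (0.0706) or when the 2 groups were fitted alone (0.0611). With the length trend removed the log2 fold change was 0.88 (adjusted p = 0.000349). Transcripts of this length class were lower in both med7-1002 libraries. The call against med21-1002 was lost under 8 of 15 alternatives, and that against med10-1002 without either med10-1002 library (adjusted p = 0.0530 without replicate 1 and 0.123 without replicate 2). In med21-1002 and med10-1002 the differences from parent were 0.14 ± 0.13 (adjusted p = 0.61) and 0.01 ± 0.13 (adjusted p = 0.964).

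PAP2, the polymerase gene of TRAMP, passed against parent in no mutant. PAP2 (YOL115W; chrXV:101409-103342, plus strand, 1934 nt) had 135 and 122 CPM in med7-1002, 125 and 129 CPM in med21-1002, 102 and 104 CPM in med10-1002, and 118 and 125 CPM in parent. Only the med10-1002 libraries lay below both of parent, at a log2 difference of -0.24 ± 0.11 (adjusted p = 0.23). The values were 0.08 ± 0.11 in med7-1002 (adjusted p = 0.589) and 0.06 ± 0.11 in med21-1002 (adjusted p = 0.805). With the length trend removed PAP2 passed in med7-1002 (0.34, adjusted p = 0.0488). In med10-1002 it passed under 3 of 16 alternatives: without med7-1002 replicate 1 (adjusted p = 0.0425), without med7-1002 replicate 2 (0.0452) and with the 2 groups alone (0.00593). PAP2 was higher in med7-1002 than in med10-1002 by 0.32 ± 0.11 (adjusted p = 0.0398), a call lost under 12 of 15 alternatives, among them the fit without med7-1002 replicate 1 (adjusted p = 0.0528) and each fit without a library of med21-1002, med10-1002 or parent (0.0543 to 0.310). With the length trend removed it was larger, at 0.70 (adjusted p = 0.00152).

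AIR1 and AIR2 encode the alternative zinc-knuckle subunits and share a longest run of 18 identical bases between their annotated transcripts. AIR1 (YIL079C; chrIX:210799-212035, minus strand, 1237 nt) had 62.7 and 58.2 CPM in med7-1002, 39.5 and 42.0 CPM in med21-1002, 49.4 and 50.2 CPM in med10-1002, and 43.9 and 54.5 CPM in parent. The med7-1002 libraries were above and the med21-1002 libraries below both of parent, and the 2 mutants differed from each other by 0.57 ± 0.14 (adjusted p = 0.0122). That call was lost under 4 of 15 alternatives, among them without med21-1002 replicate 1 (adjusted p = 0.079) and without med10-1002 replicate 1 (0.0528). Against parent, AIR1 was at 0.30 ± 0.14 in med7-1002 (adjusted p = 0.111), -0.27 ± 0.14 in med21-1002 (0.317) and 0.02 ± 0.14 in med10-1002 (0.957).

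AIR2 (YDL175C; chrIV:144266-145545, minus strand, 1280 nt) had 50.8 and 60.6 CPM in med7-1002, 51.2 and 49.8 CPM in med21-1002, 48.9 and 52.9 CPM in med10-1002, and 42.7 and 45.8 CPM in parent. All 6 mutant libraries lay above both parent libraries, as for 8.65% of transcripts, but no comparison passed: 0.33 ± 0.13 in med7-1002 (adjusted p = 0.0686), 0.19 ± 0.13 in med21-1002 (0.472) and 0.20 ± 0.13 in med10-1002 (0.387). Without med7-1002 replicate 1 the value in med7-1002 was 0.46 (adjusted p = 0.00683). The ratio of AIR1 to AIR2 counts per kb was 0.799 and 0.873 in med21-1002, and 1.04 and 0.981 in med10-1002, all below the 1.06 and 1.23 of parent. The med7-1002 libraries, at 1.28 and 0.994, lay on either side of parent.

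The exosome genes showed no call in any comparison of the fit. RRP6 (YOR001W; chrXV:326801-329109, plus strand, 2309 nt), the nuclear exonuclease gene, had 199 and 286 CPM in med7-1002, 291 and 245 CPM in med21-1002, 296 and 269 CPM in med10-1002, and 222 and 237 CPM in parent. The med21-1002 and med10-1002 libraries lay above parent, and the med7-1002 libraries lay on either side of it. Log2 differences were 0.08 ± 0.18 in med7-1002 (adjusted p = 0.731), 0.23 ± 0.18 in med21-1002 (0.535) and 0.30 ± 0.18 in med10-1002 (0.332), the last of which passed without the med7-1002 libraries (0.32, adjusted p = 0.0203). The med7-1002 value was -0.06 when scaled by library size alone, 0.39 with the length trend removed (adjusted p = 0.0255), 0.32 without med7-1002 replicate 1 (adjusted p = 0.0328) and -0.22 without replicate 2.

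LRP1, which encodes the cofactor that stabilises Rrp6, was the least well measured. LRP1 (YHR081W; chrVIII:267518-268215, plus strand, 698 nt) had 53.7 and 27.9 CPM in med7-1002, 35.2 and 45.8 CPM in med21-1002, 33.0 and 38.3 CPM in med10-1002, and 39.1 and 48.3 CPM in parent. The med7-1002 replicates differed by 0.94 on the log2 scale, and only the med10-1002 libraries lay below both of parent. Log2 differences were -0.11 ± 0.28 in med7-1002 (95% interval -0.75 to 0.54; adjusted p = 0.782), -0.11 ± 0.28 in med21-1002 (0.877) and -0.29 ± 0.28 in med10-1002 (0.571). For med7-1002 the value was -0.65 without replicate 1 (adjusted p = 0.0111) and 0.28 without replicate 2, so its direction depends on which med7-1002 library is kept. It was -0.53 with the length trend removed (adjusted p = 0.0352).

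**Figure D3:**
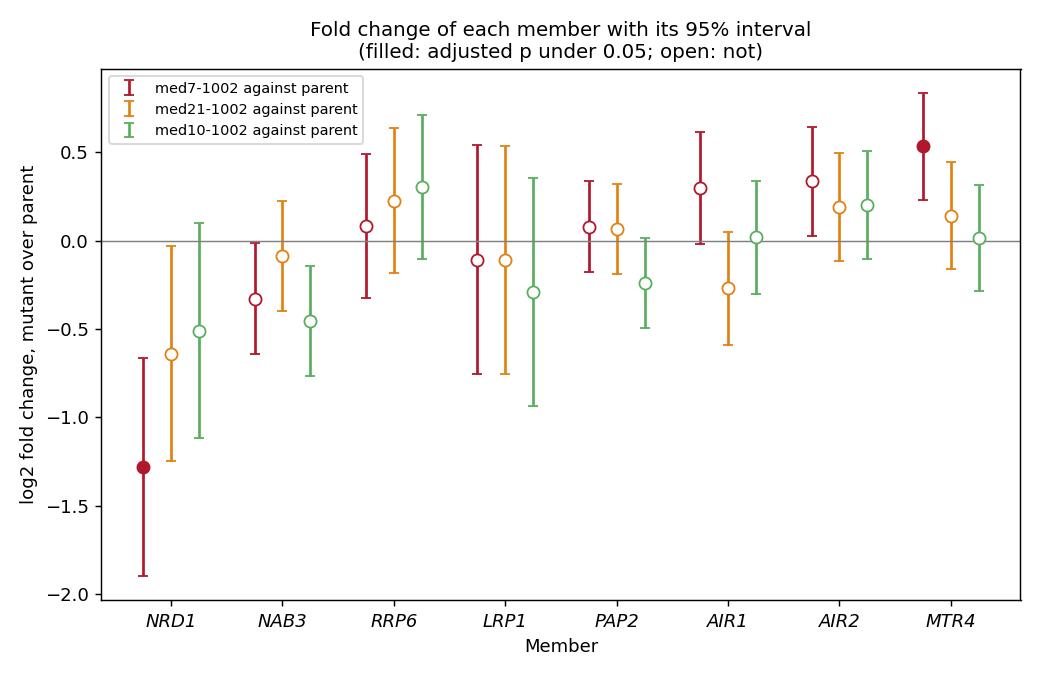
Log2 fold change of each member in each mutant over parent (vertical axis) with its 95% interval; filled points have an adjusted p under 0.05 and open points do not. NRD1 at -1.28 and MTR4 at 0.53, both in med7-1002, are the filled points.

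Counted over the set, 2 of 8 members passed in med7-1002 against parent, 1 lower and 1 higher, where 48.6% of all transcripts passed (25.9% higher and 22.6% lower). In med21-1002 against parent 0 of 8 passed by edgeR, where 7.8% of all did (3.88% higher and 3.92% lower; 1 member at an unadjusted p under 0.05, 0 by DESeq2). In med10-1002 against parent 0 of 8 passed by edgeR, where 7.55% did (4.93% higher and 2.63% lower; 1 at an unadjusted p under 0.05, 1 by DESeq2). The shares in the set were no higher than the background. Libraries of mutant and parent did not overlap for 3 members higher and 2 lower in med7-1002 (35.7% and 35.9% of all transcripts), 3 higher and 2 lower in med21-1002 (31% and 31.9%), and 2 higher and 4 lower in med10-1002 (37.6% and 39%). The median log2 fold change of the 8 was 0.08 in med7-1002, -0.01 in med21-1002 and -0.11 in med10-1002, against 0.02, -0.00 and -0.01 over all transcripts tested.

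Between mutants, 2 of 8 members passed for med7-1002 over med21-1002 (background 40.7%, with 22.1% higher and 18.6% lower), both higher (AIR1 and MTR4). For med7-1002 over med10-1002, 3 passed (background 54.9%, with 29.9% higher and 25% lower): MTR4 and PAP2 higher and NRD1 lower. For med21-1002 over med10-1002, 0 passed by edgeR (background 20%, with 9.38% higher and 10.6% lower; 2 at an unadjusted p under 0.05, 1 by DESeq2). Without the med7-1002 libraries 3 passed in this last comparison, where 47.4% of 5701 transcripts did (22.4% higher and 24.9% lower): NAB3 (0.35, adjusted p = 0.00908) and PAP2 (0.28, adjusted p = 0.0165) were higher in med21-1002 and AIR1 lower (-0.31, adjusted p = 0.0498). In the same fit 1 member passed in med21-1002 against parent (background 29.7%, with 14.8% higher and 14.9% lower), which was NRD1, lower. In med10-1002 against parent 3 passed (background 36.9%, with 20.8% higher and 16% lower), NRD1 and NAB3 lower and RRP6 higher.

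No annotated transcript overlapped NRD1, NAB3, RRP6, LRP1, AIR1 or MTR4. PTH4 (YOL114C) overlapped the end of PAP2 by 67 nt and GID12 (YDL176W) the end of AIR2 by 73 nt, each on the opposite strand; the strand setting of the counting is unknown here, so reads from these stretches may not be told apart. Neither neighbour passed against parent: log2 differences were -0.34 to -0.18 for PTH4 and -0.07 to 0.34 for GID12 over the 3 mutants. Noncoding transcripts within 500 nt, all on the opposite strand, lay near NAB3, RRP6, PAP2 and MTR4. SUT632, a stable unannotated transcript 416 nt upstream of MTR4, had 22.9 and 13.4 CPM in med7-1002, 26.0 and 25.9 CPM in med21-1002, 53.6 and 48.0 CPM in med10-1002, and 24.0 and 23.9 CPM in parent. It rose in med10-1002 (log2 1.08 ± 0.23, adjusted p = 0.0273), where the MTR4 difference was 0.01. XUT_16F-73 near NAB3 and XUT_15R-66 near PAP2 passed in no mutant against parent, at -0.38 to 0.02 and -0.91 to -0.62. SUT769 (RRP6) and SUT767 (PAP2) had at most 5 reads in any library and were not tested.

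The wider decay machinery was described with 60 tested genes in 8 lists, of which the 2 with the smallest adjusted p are named per list; other names were added after their values were seen. In med7-1002 against parent 16 of the 60 rose and 12 fell, with a median log2 fold change of 0.12. In med21-1002, 2 passed (DCS1 higher, EDC2 lower), and in med10-1002, 3 passed (PTI1, EDC1 and EDC2, all lower). These counts, too, stand against the backgrounds of 48.6%, 7.8% and 7.55%.

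Of the 8 termination partners of the set, the APT subcomplex included, REF2 and PCF11 fell in med7-1002. REF2, an APT subunit needed for the 3′ ends of small nucleolar RNAs, had 85.9 and 119 CPM in med7-1002, 213 and 168 CPM in med21-1002, 208 and 236 CPM in med10-1002, and 273 and 266 CPM in parent. Its log2 fold change of -1.39 ± 0.18 in med7-1002 (adjusted p = 0.000326) exceeded that of NRD1 in size, and all 6 mutant libraries lay below parent. PCF11, a termination factor that binds the tail of RNA polymerase II, had 77.9 and 123 CPM in med7-1002 against 182 and 211 CPM in parent (-0.97 ± 0.21, adjusted p = 0.00481). Both calls held under all 15 alternatives. PTI1, an APT subunit, fell in med10-1002 (-0.61 ± 0.13, adjusted p = 0.0314), a call lost when any library of med21-1002, med10-1002 or parent was left out.

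In the exosome core 5 of 10 genes passed in med7-1002, where 48.6% of all transcripts did. RRP40, an RNA-binding cap subunit, rose (0.82 ± 0.15, adjusted p = 0.00214), as did the ring subunit genes RRP42 (0.51) and MTR3 (0.49), while RRP45 (-0.48 ± 0.11, adjusted p = 0.00571) and RRP43 (-0.45), which also encode ring subunits, fell. With the length trend removed RRP40 was at 0.53 (adjusted p = 0.0564), RRP42 at 0.25 and MTR3 at 0.30, and none of the 3 passed. RRP45 and RRP43 still did. Left-out libraries ended the RRP43 call (parent replicate 1), the RRP42 call (either parent library) and the MTR3 call (either parent or med10-1002 library, med7-1002 replicate 2 or med21-1002 replicate 2). Of 6 nuclear exosome and TRAMP partners, CBC2, the small subunit of the nuclear cap-binding complex, rose in med7-1002 (0.76 ± 0.17, adjusted p = 0.00594), a call lost without parent replicate 2. MPP6, a nuclear exosome cofactor, had 102 and 12.0 CPM in the med7-1002 replicates, against 17.6 and 20.7 CPM in parent (1.56 ± 0.74, adjusted p = 0.11).

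Of the 3 genes of nuclear 5′-3′ decay, RAT1, the exonuclease gene, rose in med7-1002 (0.50 ± 0.15, adjusted p = 0.0211) and RAI1, its activator, fell (-0.32 ± 0.11, adjusted p = 0.0384); both calls were lost without either parent library or without med10-1002 replicate 2. Decapping and cytoplasmic 5′-3′ decay held the most calls, 9 higher and 2 lower of 15 in med7-1002. Of all transcripts, 25.9% were higher and 22.6% lower there. Scaled by library size alone, 7 of the 15 were higher and 4 lower. DCS1, a scavenger decapping enzyme, rose in med7-1002 (1.29 ± 0.17, adjusted p = 0.000312) and in med21-1002 (0.72 ± 0.17, adjusted p = 0.0345). EDC2, an enhancer of decapping, fell in all mutants, by 1.17 in med7-1002 (adjusted p = 0.000392), 0.73 in med21-1002 (0.0266) and 0.73 in med10-1002 (0.0279) on the log2 scale. In med21-1002 and med10-1002 the EDC2 calls, and that of DCS1 in med21-1002, were lost when either parent library, or either library of the mutant itself, was left out; those in med21-1002 were also lost without either med10-1002 library. Scaling by library size alone ended both of these EDC2 calls. EDC1 fell in med10-1002 (-0.74 ± 0.16, adjusted p = 0.0330), a call lost when any library other than those of med7-1002 was left out, by library size alone and by upper-quartile scaling. Of the 9 genes that were higher, 6 encode subunits of Lsm rings (LSM1, LSM2, LSM3, LSM5, LSM6, LSM7). Their log2 fold changes were 0.58 to 2.05 and their annotated spans 413 to 801 nt. After removal of the length trend LSM2, LSM3, LSM5 and LSM6 still passed and LSM1 (0.27) and LSM7 (0.55) did not. Without parent replicate 2 only LSM5 and LSM6 of these 6 kept their calls, and LSM3 also lost its call without parent replicate 1. LSM7 kept its call under only 3 of 15 alternatives: it was lost by library size alone, by upper-quartile scaling and when any library other than med7-1002 replicate 2 was left out.

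**Figure D4:**
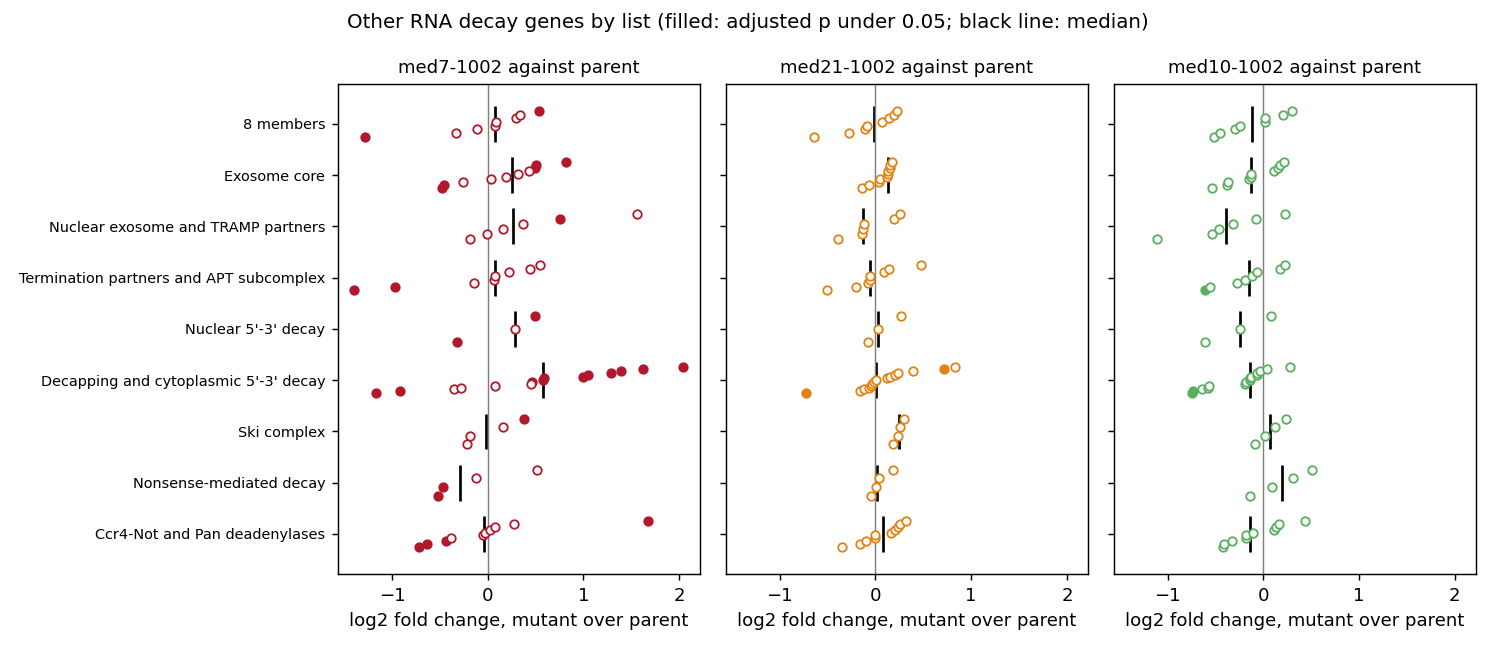
Log2 fold change over parent (horizontal axis) of the 8 members and of 60 other decay genes in 8 lists (rows), for each mutant; filled points have an adjusted p under 0.05 and black lines are medians. Filled points are frequent in med7-1002 (28 of 60) and few in med21-1002 (2 of 60) and med10-1002 (3 of 60). Over all transcripts tested the shares that passed were 48.6%, 7.8% and 7.55%.

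In med7-1002 the Ski list had 1 gene higher and 0 lower, the list of nonsense-mediated decay 0 higher and 2 lower, and the deadenylase list 1 higher and 3 lower. Over all transcripts tested, 25.9% were higher and 22.6% lower there. Of 4 Ski complex genes, SKI8 rose (0.38 ± 0.13, adjusted p = 0.0372). That call was lost when scaled by library size alone or when any library of med10-1002 or parent was left out. SKI2, the helicase gene, was at -0.22 ± 0.19 (adjusted p = 0.369). Of 4 genes of nonsense-mediated decay, NMD2 (-0.47 ± 0.13, adjusted p = 0.0137) and EBS1 (-0.52 ± 0.18, adjusted p = 0.0376) fell. With the length trend removed neither passed (-0.13 and -0.18), and both calls were lost without parent replicate 1, that of EBS1 also without parent replicate 2, med7-1002 replicate 1 or med10-1002 replicate 2. Of 10 deadenylase genes, CDC36, a Ccr4-Not subunit, rose (1.67 ± 0.24, adjusted p = 0.000483) under all 15 alternatives, while CAF130 (-0.71 ± 0.16, adjusted p = 0.00619), CAF40 (-0.64) and MOT2 (-0.44) fell. The CAF130 and CAF40 calls were lost without parent replicate 1, and that of MOT2 without either parent library or with the length trend removed (-0.18).

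Of the noncoding classes in the annotation, 110 CUTs, 378 stable unannotated transcripts (SUTs) and 351 Xrn1-sensitive transcripts (XUTs) were tested. Median log2 differences of CUTs from parent were 0.03 in med7-1002, -0.56 in med21-1002 and -0.48 in med10-1002. The med7-1002 libraries lay on either side of parent: CUTs took 0.0488% of counts in replicate 1 and 0.0141% in replicate 2, against 0.0329% and 0.0368% in parent, so the med7-1002 median joins libraries that differed in opposite directions. In med7-1002, 3 CUTs rose and 14 fell (2.73% and 12.7% of those tested). In med21-1002 1 fell (0.909%), and in med10-1002 0 passed by edgeR (5 at an unadjusted p under 0.05, 0 by DESeq2). Of SUTs, 5 rose and 114 fell in med7-1002 (1.32% and 30.2%, median -0.54). In med21-1002, 4 rose and 27 fell (1.06% and 7.14%, median -0.44). In med10-1002, 57 rose and 1 fell (15.1% and 0.265%, median 0.49). XUTs followed with medians of -0.41 in med7-1002, -0.39 in med21-1002 and 0.27 in med10-1002. SUTs took 0.244% to 0.997% of the counts in a library, and XUTs 0.116% to 0.449%. As the strand setting of the counting is unknown here, reads from overlapping transcripts on opposite strands may not be told apart in these classes. Any link between the members' levels and these classes was not tested.

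**Figure D5:**
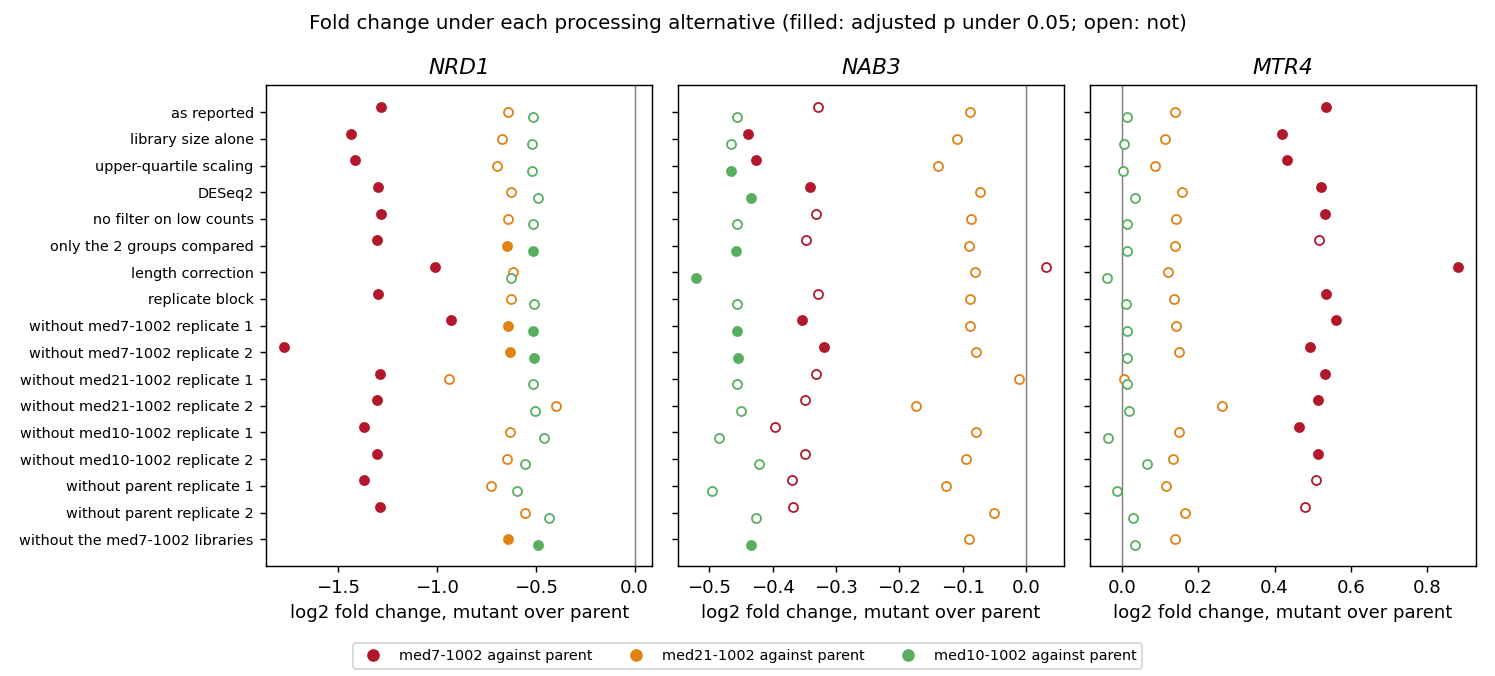
Log2 fold change of NRD1, NAB3 and MTR4 over parent (horizontal axes, which differ in range) under the reported processing and each alternative (rows); filled points have an adjusted p under 0.05. NRD1 in med7-1002 is filled throughout, between -1.77 and -0.93, whereas its points in med21-1002 and med10-1002 fill only in fits that leave out med7-1002 libraries or use 2 groups.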

How the data were processed

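Counts per transcript, 1 deposited table per library, were made by the authors with STAR 2.3.0, SAMtools and HTSeq on builds sacCer3 and R64, per the submitters' processing notes; for the strand setting and counting mode, the sources used here give nothing. Raw counts were analysed with edgeR 4.0.16 in R 4.3.3: TMM scaling, filterByExpr at a minimum count of 10, and the quasi-likelihood test with 1 term per group over all 8 libraries (4 residual degrees of freedom, common dispersion 0.03022). Benjamini-Hochberg adjustment ran over 5746 transcripts, and a gene passed at an adjusted p under 0.05. Intervals use a 95% level. Levels are TMM-scaled CPM (counts over the scaled library total), divided by annotated span where genes are compared. Reads on no annotated transcript, 32.7% to 49.5% of all reads in the tables, entered neither library sizes nor tests. Spike-in reads were not analysed here, so values are relative within a library.

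The members and the lists were chosen with earlier results of these data known. All members are described; of each other list the 2 genes with the smallest adjusted p in any comparison with parent are named, with every transcript overlapping a member and noncoding transcripts within 500 nt. Alternatives were library size alone, upper-quartile scaling, DESeq2 1.42.0, no filter, the 2 groups alone, no med7-1002 libraries, removal of a smooth trend on transcript length, the replicate block, and leaving out each library. The procedure was tested on simulated data with 200 changed transcripts and the common dispersion of 0.03022 in every library. The wider spread of med7-1002 and the length trend were not simulated, so that test does not cover them. The deposited annotation was checked against R64, and every transcript lay inside its chromosome. Replicate numbers were not used to pair the libraries in the reported fit.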

Additional observations from a re-analysis of the deposited data

Results flagged for a closer look

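Reads on no annotated transcript were not part of the counts tested, and their share was above both parent libraries in all 6 mutant libraries. The med7-1002 libraries had 49.5% (replicate 1) and 37.7% (replicate 2). The med21-1002 libraries had 36.3% and 34.3%, the med10-1002 libraries 34.7% each, and the parent libraries 32.7% and 33.5%. The library with the largest share, med7-1002 replicate 1, is also the one with the lowest NRD1 level, 224 CPM, and the highest LRP1 level, 53.7 CPM; its part in these values was not tested.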

How the results depend on the processing

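Of the member results reported, 105 alternatives of called values left 69 calls in place and lost 36, and 394 alternatives of uncalled values gave 335 that stayed uncalled in the same direction, 45 new calls and 14 turned directions. Members called in med7-1002 against parent (2) came to 5 with the length correction, 1 with the 2 groups alone, and 1 to 6 with 1 library left out. In med21-1002 against parent (0) the count was 1 with the 2 groups alone, 1 without the med7-1002 libraries, and 0 to 1 with 1 library left out. In med10-1002 against parent (0) it was 1 by upper-quartile scaling, 1 by DESeq2, 1 with the length correction, 5 with the 2 groups alone, 3 without the med7-1002 libraries, and 0 to 4 with 1 library left out. For med7-1002 over med21-1002 (2) it was 4 by DESeq2, 0 with the 2 groups alone and 0 to 4 with 1 library left out. For med7-1002 over med10-1002 (3) it was 1 with the 2 groups alone and 0 to 5 with 1 library left out. For med21-1002 over med10-1002 (0) it was 1 by DESeq2, 1 with the length correction, 2 with the 2 groups alone, 3 without the med7-1002 libraries and 0 to 2 with 1 library left out. Where 1 library of a group was left out, the lone library was assumed to vary like the other groups.

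The replicate block gave 1 called member for med7-1002 over med21-1002 and 1 for med7-1002 over med10-1002, and changed no other count of called members; among the other decay genes it ended the EDC2 and DCS1 calls in med21-1002, the EDC1, EDC2 and PTI1 calls in med10-1002, and the MTR3, RAI1, EDC1, LSM7, SKI8 and EBS1 calls in med7-1002. Same-numbered libraries deviated from their group means with correlations of -0.19 to 0.09, so no strong shared deviation was seen. These correlations cannot show whether same-numbered libraries were prepared together.

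Directions turned as follows, and no value that turned passed. In med7-1002 against parent, NAB3 was 0.032 with the length correction, RRP6 was -0.055 by library size alone and -0.037 by upper-quartile scaling, and PAP2 was -0.029 and -0.017 under these scalings; with 1 library left out RRP6 ranged over -0.22 to 0.32 and LRP1 over -0.65 to 0.28, both ends set by the med7-1002 replicates. In med21-1002 against parent, LRP1 ranged over -0.31 to 0.069 with 1 library left out. In med10-1002 against parent, AIR1 was -0.043 and MTR4 -0.038 with the length correction, and with 1 library left out AIR1 ranged over -0.13 to 0.17 and MTR4 over -0.035 to 0.067. The causes were not tested.

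Without the med7-1002 libraries, calls over all transcripts came to 1694 in med21-1002 and 2102 in med10-1002 against parent, where the fit of all 8 libraries gave 448 and 434; with the 2 groups alone they were 1213 and 2997, by DESeq2 766 and 886, with the replicate block 269 and 202, and with 1 library left out 107 to 1695 and 34 to 2091. With 2 libraries a group, LRP1, AIR1 and AIR2, with 567 to 1233 reads a library, carry the widest relative counting error of the members.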
